A study of Mus musculus with 36 samples.

Results

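The genes described here encode the proteins of the cytosolic ribosome. They were taken from the count tables by symbol: Rpl or Rps followed by a digit, plus Rplp0, Rplp1, Rplp2 and Rpsa, without the Rps6k kinases and without pseudogene names holding -ps. The rule found 86 of 21955 genes. Of these, 45 encode core proteins of the large subunit, 31 encode core proteins of the small subunit, and 9 are paralogs of core genes (Rpl10l, Rpl22l1, Rpl36al, Rpl37rt, Rpl39l, Rpl3l, Rpl7l1, Rps27l and Rps4l). The remaining one, Rps19bp1, carries such a name but encodes a protein that binds Rps19. Rpl26 was not analysed here.

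The study followed liver regeneration in C57BL/6JN mice, an inbred laboratory strain, and compared young animals of 4 months with old animals of 18 months. Liver was taken before and at times labelled 48, 72, 96, 120 and 240, for which no unit is given, nor is the way regeneration was induced. Ages and times made 12 groups with 3 libraries each, 36 in all, made from total RNA depleted of ribosomal RNA, with ERCC spike-ins of a different mix for each age that were not used here. The comparisons ask how the liver changes from before at each later time within an age, and how old differs from young. The labels used here do not say whether the 3 libraries of a group come from separate animals, so p-values measure only the spread between these libraries.

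The ribosome translates messenger RNA, with a small subunit that reads the message and a large subunit that joins amino acids. Each subunit is built in the nucleolus from ribosomal RNA and many proteins made in near-equal number, so their genes are usually transcribed at high and similar rates, and their messages start with a pyrimidine tract through which the mTOR pathway controls translation. Growing and dividing hepatocytes make new ribosomes, and unassembled Rpl5 and Rpl11 can bind Mdm2, the ubiquitin ligase that restrains p53.

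The promoters of 6 genes on which the results below turn are shown first. They come from the RefSeq promoter table (GRCm38.p6), in which 65 of the 86 genes had an entry and 21 did not. Each stretch runs from 100 bases before to 30 bases after the listed start, 5′ to 3′ on the gene's strand. Capitals mark letters of the motifs searched: CCGGAAG (the core bound by ETS factors such as Gabpa), GGGCGG (the GC box), AAGATGGC (the element bound by Yy1) and TATAAA on both strands, and CTTTCC, a pyrimidine run, on the gene's strand only. Where matches of 2 motifs overlap, both are in capitals. Rpl22, for which 2 starts are listed and the first is shown, lies at chr4:152325626-152325755 (+), Rpl22l1 at chr3:28805408-28805537 (+) and Rplp0 at chr5:115559367-115559496 (+). Rpl41 lies at chr10:128549139-128549268 (-), Rps10 at chr17:27635215-27635344 (-) and Rps15a at chr7:118116118-118116247 (-).
Rpl22: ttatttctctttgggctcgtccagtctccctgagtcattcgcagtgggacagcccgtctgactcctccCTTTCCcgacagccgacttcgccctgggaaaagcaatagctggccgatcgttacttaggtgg
Rpl22l1: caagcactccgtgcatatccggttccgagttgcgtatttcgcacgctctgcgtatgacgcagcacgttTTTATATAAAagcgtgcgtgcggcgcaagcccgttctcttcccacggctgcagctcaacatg
Rplp0: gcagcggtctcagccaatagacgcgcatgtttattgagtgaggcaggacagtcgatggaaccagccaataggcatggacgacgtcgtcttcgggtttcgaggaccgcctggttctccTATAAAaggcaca
Rpl41: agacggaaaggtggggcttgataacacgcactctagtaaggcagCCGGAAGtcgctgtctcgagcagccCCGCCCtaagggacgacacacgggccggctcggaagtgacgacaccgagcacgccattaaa
Rps10: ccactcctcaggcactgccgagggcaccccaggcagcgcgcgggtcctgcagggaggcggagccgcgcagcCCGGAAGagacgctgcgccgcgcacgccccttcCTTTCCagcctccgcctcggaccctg
Rps15a: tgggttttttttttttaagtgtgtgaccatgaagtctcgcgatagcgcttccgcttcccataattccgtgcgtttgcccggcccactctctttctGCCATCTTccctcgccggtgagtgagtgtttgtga

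Rpl22, whose level fell at several times, and its paralog Rpl22l1 shared none of the motif letters in this stretch: the first held a CTTTCC and the second a TATAAA. Rpl41 and Rps10, which rose, both held CCGGAAG upstream of the start, and Rps15a held the reverse complement of AAGATGGC across its start. Rplp0, which also rose, held neither of these in this stretch, only a TATAAA after its listed start. Over the whole 300-base windows of the table, CCGGAAG was in 24 of 65 promoters (36.9%), against 9.12% of all 27025 promoters. GGGCGG was in 40 (61.5%, against 35.9%), CTTTCC in 22 (33.8%, against 14.0%), AAGATGGC in 5 (7.69%, against 2.88%) and TATAAA in 6 (9.23%, against 14.2%). These are letter matches and were not related to binding.

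The deposited values were read counts per gene. Levels are given as CPM, the usual count relative to library size, with totals scaled by the TMM method. Total counts per library ranged from 2328233 to 6034446 with a median of 4439170. The 86 genes together had 8830 to 26151 reads per library, 0.259% to 0.533% of all counts (median 0.312%). Changes come from edgeR's quasi-likelihood test fitted on all 36 libraries and all 13436 genes that passed a filter on low counts, of which 83 were ribosomal protein genes. A gene was called at a Benjamini-Hochberg adjusted p under 0.05, and errors of log2 fold changes are standard errors. In bulk tissue, fewer cells of a type and less RNA per cell cannot be told apart. In 12 libraries, 1 in each group, 4 Y-linked transcripts summed to 180.4 CPM or more, and in the 24 called without them to at most 0.211 CPM.

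The 3 genes below the filter are paralogs known for expression outside the liver. Rpl10l and Rpl39l, both testis paralogs, had at most 0.242 CPM in any library. Rpl3l, the paralog of striated muscle, had at most 1.22 CPM except in replicate 1 of young mice at 120, where it reached 5.46 CPM from 28 reads.

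Levels per transcript length were far from equal. Rpl4, which lines the tunnel through which the new chain leaves, had 443.9 ± 62.0 CPM per kb over the 36 libraries (SD), and Rpl8, next to the catalytic centre, had 383.4 CPM per kb. Together they made up 30.1% of the summed CPM of these genes, and the 10 genes with the highest CPM made up 58.1%. Rpl14 (154.1 CPM per kb), Rps2 (151.3), Rps15 (150.6) and Rpl13a (139.6) followed, and at the low end were Rpl34 (4.34) and Rps10 (3.21), a protein of the head of the small subunit. Among the 83 tested genes, apart from the step from Rpl8 to Rpl14, no gap between neighbours in this order was larger than the spread of both over libraries (1 SD), so the order in between is loose. The order also depended on the length used. By the combined length of all annotated exons, Rpl4 and Rpl8 kept ranks 1 and 2. Rpl22 went from rank 7 (137.1 CPM per kb) to rank 20 (22.3 CPM per kb).

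Many ribosomal protein genes have near-identical pseudogenes, and the counting of reads with several matching places is not given in the sources used here. For each gene, the share of 75-base windows of 1 coding transcript that occurs in no other gene's transcript was computed from GENCODE vM21. The median was 49.9%, with 19 genes at or above 80% and 20 below 25%. Rps27 was at 1.48%, Rpl5 at 7.51% and Rps10 at 9.91%, whereas Rps3 was at 100.0%. Rpl4 (91.5%), Rpl8 (95.1%) and Rpl22 (93.0%) were among the distinct ones. Level per length went with distinctness (Spearman's rho 0.389 over the 83 genes tested, a description across genes that do not vary independently), so low levels of genes such as Rps10 and differences between genes are uncertain. Fold changes of 1 gene between groups use the same counting in each library.

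**Figure D1:**
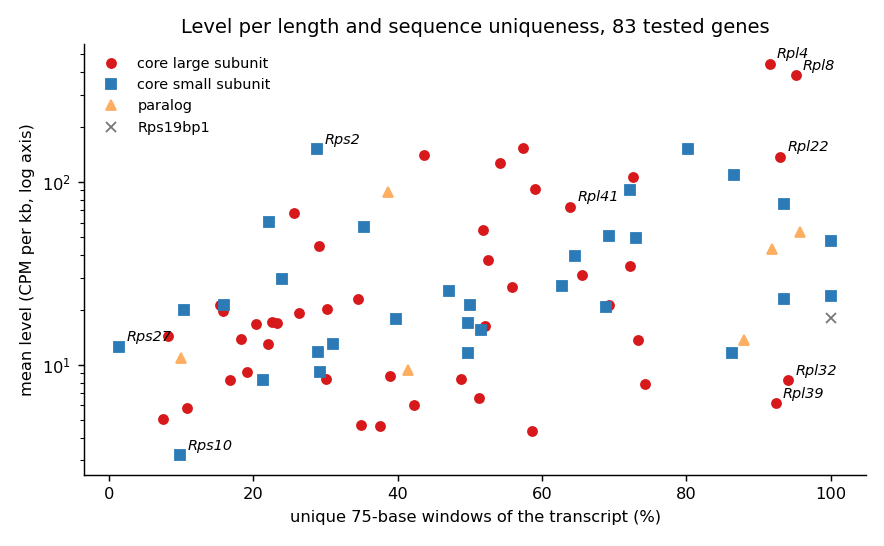
Mean level over the 36 libraries (CPM per kb, log axis) against the percent of 75-base windows unique to the gene, one point for each of the 83 tested genes, by class. Rpl4, Rpl8 and Rpl22 lie at the upper right (443.9, 383.4 and 137.1 CPM per kb) and Rps10 at the lower left (3.21 CPM per kb, 9.91% unique).

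The summed level of all 86 genes was highest at 48 in both ages. Young mice had 3550, 3153 and 3337 CPM before and 4104, 3462 and 3817 CPM at 48. Old mice had 3230, 3079 and 2895 CPM before and 4937, 5297 and 3208 CPM at 48. The groups overlapped by value in each age: the lowest young library at 48 was below the highest before, and replicate 3 of old mice at 48 was below the highest old library before while the other 2 lay above all other libraries. At 96 the young libraries had their lowest mean, 2880 ± 190.9 CPM (SD, n = 3), and at 240 both ages were near their level before (3234 ± 236.9 CPM in young and 2988 ± 122.0 CPM in old). The ratio of summed large-subunit to small-subunit CPM stayed between 1.98 and 2.76 over all libraries.

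**Figure D2:**
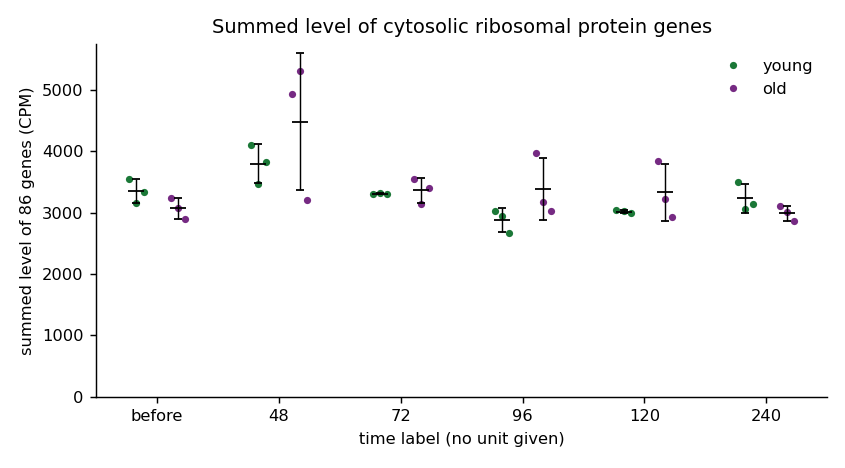
Summed level of the 86 genes (CPM) in each library by age and time label, evenly spaced along the axis, with the mean and SD of the 3 libraries. Old mice at 48 show 4937 and 5297 CPM in 2 libraries and 3208 CPM in the third.

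At 48 in young mice, a few genes changed and most were not called. Of the 83 tested, 7 were called higher, against 12.2% of all genes, and 2 lower, against 9.88%, so the share called was not above that of all genes. The median log2 fold change was 0.33, against -0.01 over all genes, and 70 of 83 were above 0. The large subunit gave 4 higher and 2 lower of 45, the small subunit 3 higher of 31, and the 6 tested paralogs none. Values did not overlap between before and 48 for 27 genes on the higher side (20.6% of all genes did so) and 4 on the lower side (20.8%).

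Rpl41, a very short protein at the interface between the subunits, had 22.9, 21.9 and 20.8 CPM before and 51.1, 38.8 and 41.4 CPM at 48 in young mice. All 3 libraries at 48 lay above those before, and Rpl41 rose about 2-fold (log2 1.00 ± 0.21, adjusted p = 0.000794). Rps29, a short zinc-binding protein of the small subunit, had 14.8, 12.2 and 14.3 CPM before and 23.2, 21.5 and 33.0 CPM at 48, again without overlap (log2 0.91 ± 0.28, adjusted p = 0.0185), a call that ended without replicate 2 before or replicate 3 at 48. Rplp0, which carries the Rplp1 and Rplp2 dimers of the stalk that recruits translation factors, had 130, 126 and 128 CPM before and 166, 165 and 186 CPM at 48. Rplp0 rose slightly (log2 0.43 ± 0.15, adjusted p = 0.0435, with the call gone in 10 of 47 alternatives, among them without any 1 of these 6 libraries), while Rplp1 (0.61 ± 0.32, adjusted p = 0.189) and Rplp2 (0.30 ± 0.28, adjusted p = 0.483) were not called.

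Rps10 showed the largest fold change in young mice at 48, from few reads. It had 3, 3 and 2 reads before and 10, 9 and 11 reads at 48, which is 0.624, 0.746 and 0.484 CPM against 1.63, 2.33 and 2.71 CPM (log2 1.78 ± 0.43, adjusted p = 0.0055). The groups did not overlap, and the call was lost in the 24 libraries without Y-linked transcripts. The other genes called higher were Rpl30 (log2 1.2 ± 0.40, adjusted p = 0.0304), Rpl6 (0.91 ± 0.29, adjusted p = 0.0242) and Rps7 (0.77 ± 0.28, adjusted p = 0.0495), and the last lost its call in 33 of 47 alternatives. Rpl30 and Rpl6 each lost theirs without any 1 of 4 of the 6 libraries compared, replicates 1 and 2 before and replicate 3 at 48 among them for both. The count of 9 called genes fell to 4 without replicate 2 of young mice before, without replicate 3 of young mice at 48, and in the 24 libraries without Y-linked transcripts. Of all genes, 9.72%, 8.57% and 7.55% were higher in these fits, and 7.14%, 4.79% and 4.54% lower.

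The genes that fell in young mice at 48 were Rpl22 and Rpl23a. Rpl23a, at the tunnel exit where the nascent chain meets its receptors, had 11.2, 13.7 and 9.93 CPM before and 4.58, 5.43 and 5.42 CPM at 48. Its libraries did not overlap, and it fell 2.26-fold (log2 -1.18 ± 0.27, adjusted p = 0.00169), with 18.3% of its windows unique. In old mice the same gene had 8.69, 9.61 and 12.3 CPM before and 5.78, 9.93 and 6.75 CPM at 48, which overlapped (log2 -0.44 ± 0.26, adjusted p = 0.21). The change did not differ between the ages by test (difference 0.73 ± 0.37, adjusted p = 0.329).

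At 48 in old mice, ribosomal protein genes rose broadly. Of 83 tested, 42 were called higher, against 12.3% of all genes, and 1 lower, against 12.1%. The median log2 fold change was 0.645, against 0.01 over all genes, and 77 of 83 were above 0. Both subunits took part, with 22 higher and 1 lower of 45 in the large subunit (median 0.68) and 19 higher of 31 in the small subunit (median 0.68), but of the 6 paralogs only Rpl7l1 was called (0.44 ± 0.14, adjusted p = 0.0209). Groups did not overlap for 30 genes on the higher side (14.9% of all genes) and 1 on the lower side (16.6%). Of the 16 tested genes with at least 80% unique windows, 7 were higher and 1 lower (median 0.51), and of the other 67, 35 were higher (median 0.68).

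**Figure D3:**
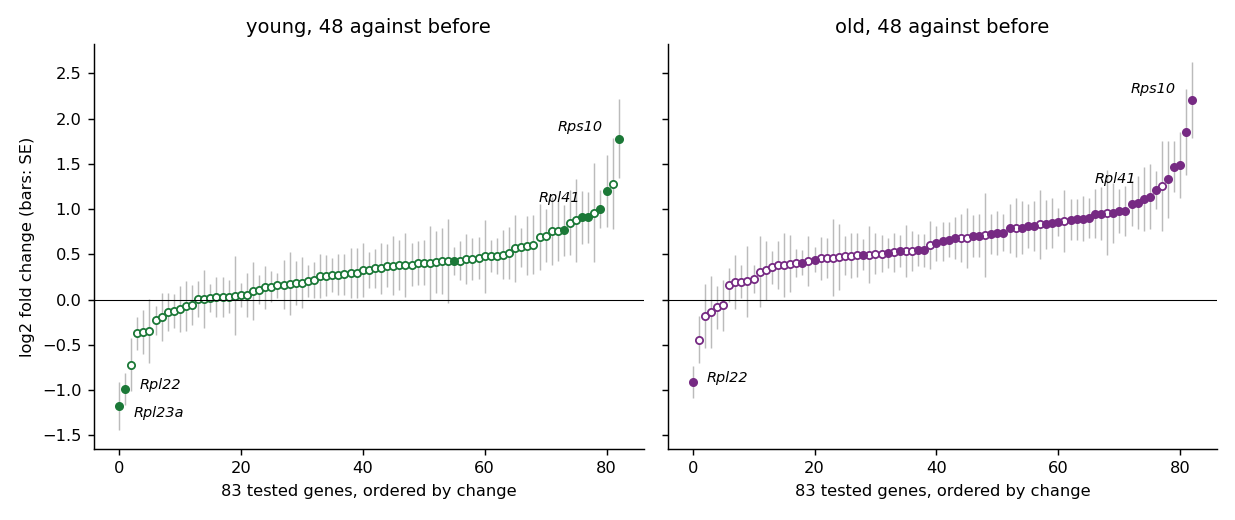
Log2 fold change with its standard error of each of the 83 tested genes at 48 against before, ordered by change, in young (left) and old (right) mice, with filled points for genes called by edgeR. Young mice show 7 genes called higher and 2 lower, old mice 42 and 1, with Rpl22 at or near the bottom of both.

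This breadth depended on single libraries. Replicate 2 of old mice at 48 was the least like its group, by a chi-square of gene counts between 2 libraries per degree of freedom. It was 61.93 with replicate 1 and 71.16 with replicate 3, and at most 32.68 for any other pair within a group. Members called fell from 43 to 11 without replicate 2 of old mice at 48. They fell to 17 without replicate 3 of old mice before (7.09% of all genes higher and 6.91% lower). Without replicate 2 before they fell to 25 (7.29% and 8.3%), and without replicate 3 at 48 they rose to 59 (13.7% and 13.3%). Without replicate 2 at 48, 9.36% of all genes were higher and 7.67% lower, against 10 higher and 1 lower of the 83, so the share called was then not far from or below that of all genes. The number was 26 with counts thinned to the smallest total (10.5% of all genes higher and 10.8% lower). It was 28 in the 24 libraries without Y-linked transcripts (10.7% and 10.5%). In a fit of only the 6 libraries compared it was 0, and 0.803% of all genes were higher and 1.02% lower. DESeq2 called 42 genes, with 7.62% of all 21955 genes higher and 7.51% lower.

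Among the genes with large changes at 48 in old mice was Rps15a, a small-subunit protein, with 9.63, 11.4 and 9.35 CPM before and 19.6, 44.4 and 20.2 CPM at 48. All 3 later libraries were higher, 1 of them far above the other 2 (log2 1.47 ± 0.28, adjusted p = 0.000509). Rplp0 had 129, 121 and 118 CPM before and 230, 282 and 156 CPM at 48, without overlap (log2 0.86 ± 0.15, adjusted p = 0.000262). Its stalk partners had near-equal fold changes, of which Rplp2 passed the threshold (0.79 ± 0.27, adjusted p = 0.0362) and Rplp1 did not (0.80 ± 0.33, adjusted p = 0.0733). The call of Rplp2 ended without replicate 2 or 3 before and without replicate 1 or 2 at 48.

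Rpl41 had 24.6, 27.9 and 18.0 CPM before and 58.0, 69.1 and 36.2 CPM at 48 in old mice, and it rose 2.31-fold (log2 1.21 ± 0.21, adjusted p = 0.000195). Rpl27, of the large subunit, had 12, 57 and 12 reads at 48 in old mice against 9, 3 and 8 before. The log2 fold change of Rpl27 was 1.85 ± 0.47 (adjusted p = 0.00573), and its call ended without replicate 2 at 48. Its lowest value among the alternatives was 0.76. Rpl35, at the tunnel exit, was in the same direction, with 4.70, 3.57 and 1.60 CPM before and 8.45, 14.2 and 5.11 CPM at 48 (1.49 ± 0.36, adjusted p = 0.00396).

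Rps10 rose from 0.939, 0.670 and 0.228 CPM to 1.78, 4.46 and 2.45 CPM (log2 2.2 ± 0.42, adjusted p = 0.000492), again from few reads (4, 3 and 1 before and 8, 22 and 12 at 48). Its call remained in all 44 alternatives that tested it. The fit of only the 6 libraries compared did not test Rps10, and called 0 of the 82 genes it tested. Rpl13a, Rpl22, Rpl35, Rpl41, Rpl7a, Rplp0 and Rps15a lost theirs in 1 only, the fit of the 6 libraries compared. The remaining genes among the 8 called with the largest rise were Rpl30 (1.33 ± 0.42, adjusted p = 0.0225), Rps19 (1.14 ± 0.36, adjusted p = 0.0222) and Rpl37 (1.11 ± 0.35, adjusted p = 0.0226). These 3 calls each ended without replicate 2 at 48 and without replicate 2 before, and, for Rpl30 and Rps19, without replicate 3 before, for Rpl30 without replicate 1 at 48 and for Rpl37 without replicate 1 before. Among the alternatives Rps19 went as low as 0.54. Rps19 is the protein most often mutated in Diamond-Blackfan anaemia, an inherited failure of red cell production.

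Other proteins of known role moved with them at 48 in old mice. Rpl3, at the catalytic centre (1.07 ± 0.30, adjusted p = 0.00946), Rpl13a (1.06 ± 0.25, adjusted p = 0.00307), Rpsa, the laminin receptor precursor (0.90 ± 0.24, adjusted p = 0.00899), Rps4x (0.81 ± 0.24, adjusted p = 0.0161) and Rps6, the substrate of S6 kinase (0.55 ± 0.18, adjusted p = 0.0295), were called higher. Of these, Rpl3 and Rpsa lost their call without replicate 2 at 48 and, of the 6 libraries, no other, and Rps4x and Rps6 without more than 1 of the 6. Rpl5 was called (0.80 ± 0.29, adjusted p = 0.0464) but lost its call in 18 of 47 alternatives, and its partner Rpl11 was not called (0.87 ± 0.34, adjusted p = 0.0612). Rpl38 (1.26 ± 0.50, adjusted p = 0.0667), Rps14 (0.68 ± 0.26, adjusted p = 0.0595), Rpl10 (0.60 ± 0.27, adjusted p = 0.0983) and Rps3 (0.49 ± 0.24, adjusted p = 0.131) did not pass the threshold.

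Rpl4 and Rpl8, the 2 most abundant genes, changed less than the median of 0.645, which did not hold for all abundant genes, such as Rpl13a and Rplp0. Rpl4 had 618, 642 and 618 CPM before and 918, 947 and 626 CPM at 48 in old mice, and Rpl8 had 339, 311 and 332 CPM before and 502, 596 and 304 CPM at 48. In both, replicate 3 at 48 overlapped the range before or lay under it, and the other 2 lay far above it. Rpl4 was called at 0.41 ± 0.14 (adjusted p = 0.0293) and Rpl8 at 0.51 ± 0.16 (adjusted p = 0.0223), and both calls ended without replicate 1 or 2 at 48 and without replicate 2 or 3 before.

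Marker genes of cell types and of the cell cycle also differed at 48, and their part in the ribosomal protein result was not tested. In old mice at 48, the summed level of 5 proliferation genes (Mki67, Top2a, Ccnb1, Cdk1 and Mcm2) was 258.5, 29.2 and 674.8 CPM, against 3184, 1729 and 3350 CPM in young mice, so the old library with the highest ribosomal protein sum had the lowest proliferation sum. Before, it was 40.4 to 64.9 CPM in young and 39.5 to 101.4 CPM in old mice. In the same old libraries, 10 T and B cell markers summed to 1.78, 2.03 and 12.9 CPM, against 13.7 to 34.0 CPM before, and 4 neutrophil markers of 5 listed summed to 6.14 to 37.1 CPM, against 1.60 to 15.3 CPM. The 5 cholangiocyte markers reached 214.7 CPM in replicate 2, against 30.8 to 62.0 CPM before. The 8 hepatocyte markers, which define the main cell of the labelled tissue, summed to 14980 to 20350 CPM at 48 and 18350 to 25220 CPM before. For macrophages and monocytes (10 markers) the sums were 286.7 to 506.2 CPM at 48 and 523.8 to 647.9 CPM before, for endothelium (6) 250.8 to 374.1 and 320.5 to 440.1 CPM, for stellate cells (6) 289.8 to 480.8 and 261.8 to 368.6 CPM, and for 4 nuclear RNAs 15370 to 33580 and 14500 to 29170 CPM. No marker was at 0 over a whole group in old mice before or at 48.

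At 72 the response was small. In young mice 2 genes were higher (9.26% of all genes) and 1 lower (8.23%): Rps29 (log2 0.98 ± 0.28, adjusted p = 0.0148), Rpl41 (0.81 ± 0.21, adjusted p = 0.00914) and Rpl22. The call of Rpl41 ended without replicate 1 at 72, and that of Rps29 without replicate 2 before or replicate 2 at 72. With total-count scaling, under which the median of all genes moves up, the young split was 10 higher and 1 lower. The median over the ribosomal protein genes was then 0.36 in place of 0.16. The shares of all genes called at 72 with total-count scaling are not given here, and those above are with TMM scaling. In old mice 4 were higher (6.71%) and 1 lower (5.92%): Rps10 (1.99 ± 0.43, adjusted p = 0.0027), Rps15a (0.95 ± 0.28, adjusted p = 0.0258), Rpl7a (0.78 ± 0.24, adjusted p = 0.033), Rpl41 (0.74 ± 0.21, adjusted p = 0.0194) and Rpl22. Rps15a had 20.9, 19.4 and 18.6 CPM at 72 in old mice, all above the 3 before, yet leaving out any 1 of those 6 libraries ended its call. Rpl7a lost its call without any 1 of the 3 libraries at 72 or of replicates 2 and 3 before, and Rpl41 without replicate 3 before or at 72.

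At 96, no gene was higher in young mice (0.685% of all genes) and 2 were lower (0.752%). Rpl22l1 was among them. In old mice 3 were higher (3.77%) and 1 lower (3.08%): Rps10 (1.77 ± 0.44, adjusted p = 0.017), Rps15a (1.06 ± 0.29, adjusted p = 0.0229), Rpl31 (0.70 ± 0.22, adjusted p = 0.0462), whose call was lost in 19 of 47 alternatives, and Rpl22. The groups of Rps10 overlapped at 96, and its call and that of Rps15a each ended without replicate 2 or 3 before and without 1 library at 96, replicate 2 for Rps10 and replicate 1 for Rps15a. At 120 edgeR called 0 higher (0.223%) and 0 lower (0.372%) in young mice, and 0 higher (1.96%) and 1 lower (2.08%), Rpl22, in old mice.

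At 240 it called 0 higher (0.0521%) and 0 lower (0.208%) in young mice, and 0 higher (0.0149%) and 0 lower (0.127%) in old mice. At an unadjusted p under 0.05 the numbers were 5 in young mice at 120 (12.1% of all genes), 1 in young mice at 240 (5.21%) and 6 in old mice at 240 (7.81%), and DESeq2 called 0 in each of these 3. Comparisons within an age share the 3 libraries before. In all, 47 of the 83 tested genes were called in at least 1 of the 10 comparisons with before, against 42.4% of all genes, and 36 in none. The medians were near 0 at 96 (-0.06), 120 (-0.07) and 240 (0.00) in young mice and at 240 (-0.02) in old mice, and each changed sign under another scaling.

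Rpl22 went against the other genes. It is an RNA-binding protein of the large subunit, and it is known to repress its paralog Rpl22l1. In young mice it had 86.1, 84.1 and 80.2 CPM before, 43.3, 48.1 and 34.7 CPM at 48 and 43.4, 41.3 and 51.4 CPM at 72. It then stood at 73.1, 65.0 and 59.7 CPM at 96, 70.9, 77.2 and 78.2 CPM at 120 and 83.7, 77.4 and 86.2 CPM at 240. The values at 48 and 72 lay below all others and those at 240 overlapped with before. Rpl22 fell 1.98-fold at 48 (log2 -0.99 ± 0.18, adjusted p = 0.000161) and 1.84-fold at 72 (-0.88 ± 0.18, adjusted p = 0.00139), and it was not called at 96 (-0.34 ± 0.18, adjusted p = 0.356).

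In old mice Rpl22 had 84.3, 90.0 and 103.6 CPM before, 57.8, 37.1 and 52.8 CPM at 48 and 59.7, 41.4 and 36.6 CPM at 72. The later values were 41.6, 55.4 and 66.4 CPM at 96, 55.7, 47.4 and 60.2 CPM at 120 and 77.9, 87.5 and 100.7 CPM at 240. Every old library from 48 to 120 was below every old library before, and those at 240 overlapped with before. The log2 fold changes were -0.91 ± 0.18 at 48 (adjusted p = 0.000575), -1.01 ± 0.18 at 72 (adjusted p = 0.000529), -0.76 ± 0.18 at 96 (adjusted p = 0.00886) and -0.77 ± 0.18 at 120 (adjusted p = 0.014).

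The calls of Rpl22 at 48 and 72 remained in all 47 alternatives except at 48 in old mice, where a fit of only the groups compared ended it. Those at 96 and 120 in old mice were each lost in 4, among them without replicate 3 before, without replicate 1 at 96, and without replicate 1 or 2 at 120. Rpl22 was lower in old than young mice at 120 without overlap (log2 -0.47 ± 0.18), but the adjusted p was 0.35, and its change from before at 120 did not differ between the ages by test (difference -0.62 ± 0.25, adjusted p = 0.63). Across the 36 libraries its median Pearson r of log2(CPM + 1) with the other tested ribosomal protein genes was -0.405, where the median over all 3403 pairs was 0.349. Rpl23a was next, with -0.155. These coefficients describe libraries that share their time and age structure.

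Rpl22l1 had 7.49, 6.71 and 9.44 CPM in young mice before, 4.74, 4.66 and 4.93 CPM at 48, and 3.19, 3.04 and 2.49 CPM at 96. The libraries at both later times were below all those before, and the gene fell 2.67-fold at 96 (log2 -1.42 ± 0.31, adjusted p = 0.0137) while the change at 48 was not called (-0.72 ± 0.29, adjusted p = 0.0765). The call at 96 ended without any 1 of the 3 libraries at 96 or without replicate 3 before. In old mice it had 6.11, 4.47 and 3.19 CPM before and 6.22, 6.48 and 3.07 CPM at 48, which overlapped (0.20 ± 0.30, adjusted p = 0.669). Its Pearson r with Rpl22 over the 36 libraries was 0.105. The genes of the whole table most like Rpl22l1 over the 36 libraries were Strap (r 0.687), Vapa (0.653) and Srpr (0.65).

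**Figure D4:**
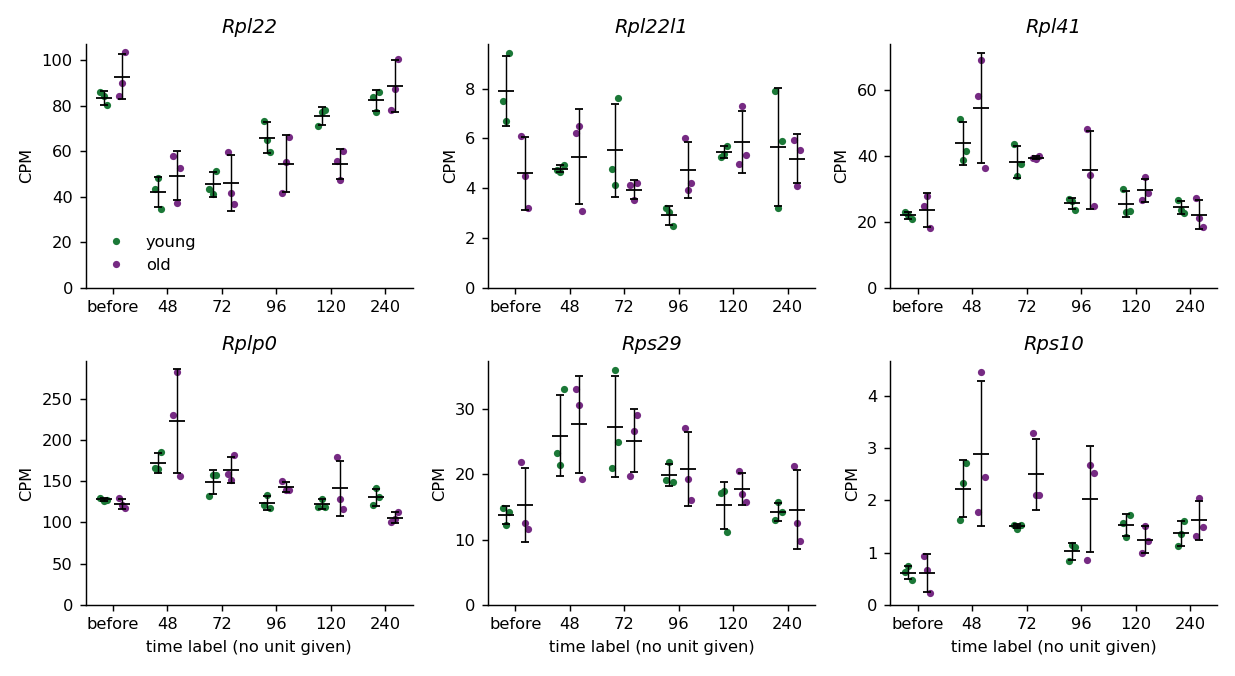
Level (CPM) of 6 genes in each library by age and time label, evenly spaced along the axis, with the mean and SD of the 3 libraries. Rpl22 falls from 80.2 or more before to at most 48.1 CPM in young mice at 48, while Rpl41, Rplp0, Rps29 and Rps10 are higher there than before.

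Rpl22l1 at 96 in young mice and Rpl7l1 at 48 in old mice were the only tested paralogs called against before. Rps27l, a p53 target related to Rps27, had 7.49, 5.72 and 7.51 CPM before and 17, 9.31 and 8.38 CPM at 48 in young mice (0.76 ± 0.37, adjusted p = 0.152). Its 3 most similar genes were Vps35 (r 0.802), Ndufa4 (0.784) and Dbi (0.782). Rps4l, a copy of Rps4x, had a lower mean in old than in young mice over the 6 times (log2 -0.47 ± 0.15, adjusted p = 0.0642). Before, it had 33.3, 40 and 28.6 CPM in young and 21.8, 17.4 and 18.7 CPM in old mice, which did not overlap (-0.81 ± 0.38, adjusted p = 0.686). In old mice Rps4l had 63.1, 22.1 and 18.2 CPM at 48, 35.7, 24.6 and 52.7 CPM at 72 and 59.3, 29.4 and 28.4 CPM at 96. The values at 72 and 96 all lay above those before and those at 48 overlapped with them. None of the 3 changes passed the threshold (log2 0.83 ± 0.38, adjusted p = 0.109, then 0.97 ± 0.38, adjusted p = 0.0908, and 0.99 ± 0.38, adjusted p = 0.116). Rpl36al, a copy of Rpl36a, was not called at 48 in either age (-0.13 ± 0.18 in young, adjusted p = 0.675, and 0.16 ± 0.19 in old, adjusted p = 0.548), and Rps19bp1 had 0.48 ± 0.20 (adjusted p = 0.085) and 0.51 ± 0.20 (adjusted p = 0.0689).

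Age made no difference that passed the test for any ribosomal protein gene. In old against young mice edgeR called 0 of 83 before (0.0595% of all genes), at 48 (11.4%), at 72 (0.0%), at 96 (0.402%), at 120 (0.0819%), at 240 (0.0149%) and in the mean over the 6 times (6.13%). DESeq2 called 0 at each time and 1 in the mean. At an unadjusted p under 0.05 there were 7 before (7.09% of all genes), 0 at 72 (4.97%), 6 at 96 (13.4%), 2 at 120 (10%), 2 at 240 (5.0%) and 7 in the mean (20.5%). At 48 there were 12 higher in old mice (12.2%) and 0 lower (12.9%). The median difference at 48 was 0.23, with 69 of 83 above 0. Without replicate 3 of old mice at 48, 15 genes were called, and the share of all genes called in that fit is not given here.

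The rise at 48 was therefore tested for a difference between the ages, since 42 genes were called higher in old and 7 in young mice. Before, the median log2 difference of old from young mice was -0.128 with 59 of 83 genes below 0, against 0.009 over all genes. The change from before at 48, from which this starting difference is subtracted, was larger in old mice for 74 of 83 genes. Its median difference between the ages was 0.35 on the log2 scale, against -0.01 over all genes. The test of the difference called 0 genes (1.34% of all genes), with 10 at an unadjusted p under 0.05 on the higher side (7.14%) and 0 on the lower side (9.0%). The smallest adjusted p was 0.115, for Rpl18 (0.94 ± 0.32). The same test called 0 at 72 (0.0%), 96 (0.0149%), 120 (0.00744%) and 240 (0.0%), and at an unadjusted p under 0.05 it gave 0 (4.66%), 10 (9.44%), 6 (6.97%) and 1 (1.37%) genes. The interaction of age and time as a single test called 0 (2.91%), with 2 at an unadjusted p under 0.05 (14.4%) and a smallest adjusted p of 0.299, and DESeq2 called 0.

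Other parts of the translation machinery were read from the same fits, in which 12.2% of all genes were higher and 9.88% lower at 48 in young mice and 12.3% and 12.1% in old mice. Of 41 nucleolar genes of ribosome biogenesis, 6 were higher and 0 lower at 48 in young mice (median 0.28), and 25 were higher and 0 lower in old mice (median 0.68). With total-count scaling the young count was 13 called, in a fit where 15.3% of all genes were higher and 6.67% lower. Of 75 tested mitochondrial ribosomal protein genes, 7 were higher and 1 lower in each age (medians 0.22 and 0.20). Among 24 translation factors and other messages with a pyrimidine tract, 1 was higher and 4 lower in young mice, and 6 were higher and 2 lower in old mice. Nap1l1, a histone chaperone, rose in both (0.67 ± 0.21, adjusted p = 0.0192, and 1.19 ± 0.21, adjusted p = 0.000199), and the initiation factor Eif4b fell in both (-0.87 ± 0.14, adjusted p = 2.89e-05, and -0.55 ± 0.14, adjusted p = 0.00469). None of the calls of these lists in old mice at 48 remained in a fit of only the groups compared, in which 0.803% of all genes were called higher and 1.02% lower.

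A further list held 14 tested genes linked to the transcription or translation of ribosomal protein genes or to p53. Of these, 2 were higher and 0 lower in young mice at 48, Trp53 (log2 0.69 ± 0.22, adjusted p = 0.023) and its inhibitor Mdm2 (0.83 ± 0.23, adjusted p = 0.00963). At 72 in young mice both were also called higher against before, and Rheb, which activates mTOR, and Gabpa were lower (2 higher and 2 lower of 14, against 9.26% and 8.23% of all genes). In old mice at 48, 2 were higher and 3 lower: Mtor, the kinase of the growth pathway (0.55 ± 0.16, adjusted p = 0.0149), and Eif4ebp1 were higher, and Eif4ebp2, Gabpa (-0.46 ± 0.13, adjusted p = 0.0103) and Yy1 (-0.40 ± 0.13, adjusted p = 0.0226) were lower. Larp1, which binds pyrimidine-tract messages, was not called in young (0.01 ± 0.15, adjusted p = 0.974) or old mice (0.21 ± 0.15, adjusted p = 0.292).

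**Figure D5:**
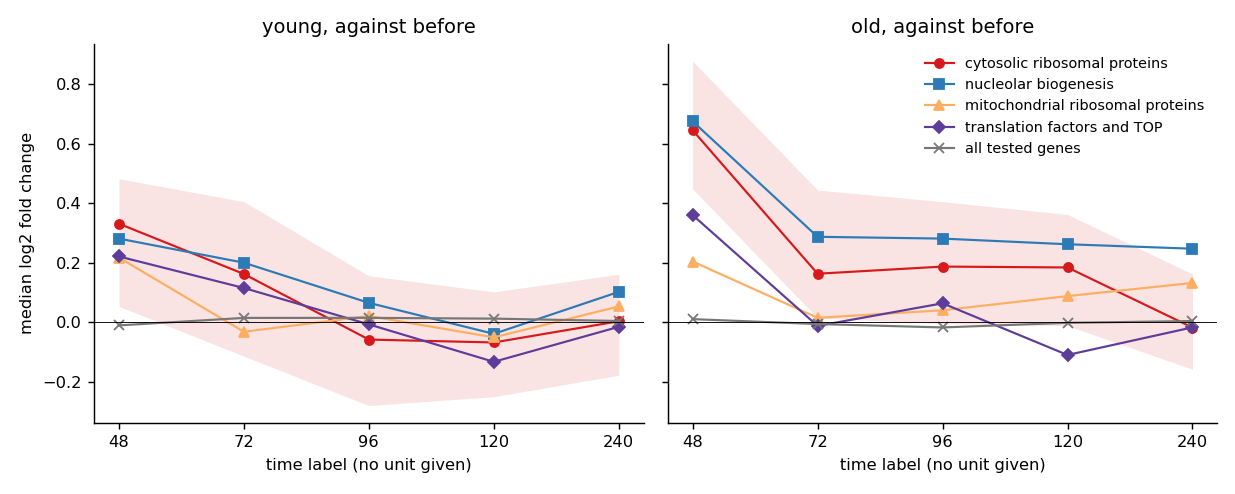
Median log2 fold change against before of the ribosomal protein genes (shaded band from the lower to the upper quartile of genes), 3 other lists and all tested genes, by time label (evenly spaced) in young and old mice. At 48 in old mice the ribosomal protein and nucleolar lists have medians of 0.645 and 0.675, and the line of all genes stays near 0.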

How the data were processed

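RNA of mouse liver was sequenced in 36 libraries after ribosomal RNA depletion. The deposited values are whole-number read counts per gene, made by the authors. Per the submitters' processing notes, the tools included Trimmomatic 0.39, STAR 2.7.5b and featureCounts with GRCm38; annotation, strand and the treatment of reads with several matches are not given in the sources used here.

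Counts were tested with edgeR 4.0.16 (R 4.3.3) by quasi-likelihood on 12 groups, with TMM scaling, a low-count filter and Benjamini-Hochberg adjustment over 13436 genes within each comparison. The code was tested on simulated data. Alternatives were other scalings and filters, thinned counts, a replicate block, a term for Y-linked transcripts, fits limited to the groups compared, DESeq2 1.42.0, and each library left out; the 24 libraries without Y-linked transcripts were added after seeing the data. Y-linked transcripts split each group in the same way, 1 library with and 2 without.

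Named genes are the called ones, up to 8 per direction by size of change among those with a mean of at least 1 CPM, a list of members of known role, and the extremes. The members and lists were chosen with earlier results of these data known. Lengths and 75-base windows come from GENCODE vM21 and use, for each gene, 1 coding transcript, with a CCDS and principal where annotated and then the shortest. Correlations use log2(CPM + 1). Sequences are from RefSeq. Results of some genes are not reported here.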

Additional observations from a re-analysis of the deposited data

How the results depend on the processing

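No named gene that was called changed direction. The median over the ribosomal protein genes changed sign at 96 (-0.06 to 0.06), 120 (-0.07 to 0.02) in young and 240 (-0.02 to 0.03) in old mice with total-count scaling, and at 240 in young mice (0.00328 to -0.00246) with median-of-ratios scaling. Leaving out each of the 36 libraries in turn gave, for the number of ribosomal protein genes called against before, 4 to 12 at 48, 2 to 8 at 72, 0 to 2 at 96 and 0 to 0 at 120 and 240 in young mice, and 11 to 59 at 48, 2 to 10 at 72, 0 to 7 at 96, 0 to 4 at 120 and 0 to 0 at 240 in old mice. For old against young mice it gave 0 to 15 at 48 and 0 to 3 in the mean, and 0 at the other times and for the interaction. At 48 against before, the share of all genes called also moved between such fits. For the other comparisons the shares in these fits are not given here. The highest numbers at 48 and 72 in young mice and at 72, 96 and 120 in old mice came without replicate 2 of old mice at 48. That library is outside those comparisons.

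With total-count scaling the numbers were 11 at 72 and 1 at 96 in young mice and 9 at 72 in old mice. With thinned counts they were 6 at 72 and 0 at 96 in young mice, 26, 2 and 2 at 48, 72 and 96 in old mice, and 1 for old against young at 48. In the 24 libraries without Y-linked transcripts they were 4 at 48 and 0 at 96 in young mice, 28, 3, 1 and 2 at 48, 72, 96 and 120 in old mice, 3 for old against young at 48 and 1 in the mean. Y-linked transcripts as a term gave 2 at 120 in old mice and 1 in the mean. DESeq2 gave 2 at 96 in old mice and 1 in the mean. Fits of only the groups compared gave 0, 1 and 0 at 48, 96 and 120 in old mice. Some of these fits use fewer libraries or reads, and the cause of the shifts was not tested. Except at 48 against before, the shares of all genes called in these fits are not given here. The fit of only the groups compared at 48 in young mice, also of 6 libraries, called 10 of 82 genes. In it 14.2% of all genes were higher and 12.3% lower.

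With the replicate block the numbers were 14 at 48 and 5 at 72 in young mice. In old mice they were 50 at 48, 7 at 72 and 7 at 96, and for old against young 3 at 48 and 1 in the mean. At 48 in this fit, 12 of 83 were higher and 2 lower in young mice, against 12.9% and 10.5% of all genes. In old mice at 48, 49 were higher and 1 lower, against 12.8% and 13.0%. Shares of all genes for its other comparisons are not given here. The replicate numbers did not pair the libraries: the mean correlation of same-numbered libraries of an age was 0.0582 (-0.378 to 0.578), and 15 of 36 correlated best with their own number. Depth limits genes such as Rps10, with 253 reads over all libraries.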

Other observations

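Because Rpl22 stood apart from the other ribosomal protein genes, the genes most like it were looked up after its values were seen. Over the 36 libraries, the Pearson r of log2(CPM + 1) was 0.935 with Fnip2, 0.93 with Rmnd5a and 0.929 with AI317395, and the most opposite genes were Tubb6 (-0.951) and Fat1 (-0.921). These libraries share their age and time structure, and the values are a description only.

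For Rpl22l1 the most opposite gene was Clec11a (-0.712), and for Rps27l it was Zfp629 (-0.701). The median r of Rpl15 with the other tested ribosomal protein genes was near 0 (-0.0198).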
